A study of Caenorhabditis elegans with 8 samples.

Results

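The Hedgehog-related and patched-related families of Caenorhabditis elegans were examined in ribosome profiling libraries of whole worms of the wild-type strain N2. Members were the coding sequences (CDS) whose sequence name carried a gene symbol beginning with wrt (warthog), grd (groundhog), grl (ground-like), hog, qua (quahog), ptc (patched) or ptr (patched-related) followed by a number. This rule found 86 of the 20505 CDS measured. Of these, 59 were Hedgehog-related (10 wrt, 16 grd, 31 grl, 1 hog and 1 qua) and 27 were patched-related (3 ptc and 24 ptr). The rule uses names and no measured value, though the members were chosen with earlier results of these data known.

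Hedgehog-related proteins are secreted proteins that nematodes have in large numbers, in a species with no clear Hedgehog or Smoothened ortholog. In the Hog-domain class, an amino-terminal signalling part is followed by a Hog domain, the module with which Hedgehog proteins cut themselves and attach a sterol. Other members hold the amino-terminal Wart or Ground domain alone, and the ground-like proteins hold a Ground-like domain. Patched and patched-related proteins span the membrane many times and hold a sterol-sensing domain, as does the human Patched receptor. In C. elegans, members of these families are known from work on molting, the cuticle, vulva and epidermis, and are often made in epidermal cells.

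Ribosome-protected fragments, the stretches of mRNA that a ribosome shields from nuclease, were sequenced from 4 young-adult libraries and 4 libraries labelled as the fourth larval stage (L4), all grown on bacteria from synchronised hatchlings. The young-adult libraries crossed 2 ways of isolating monosomes, a gel filtration column or a sucrose gradient, with 2 library preparations, a commercial kit or the submitters' own protocol (in-house). They share 1 number in their titles, so their spread is taken as technical. The 4 L4 libraries differ in the length window cut from the gel, and no table column could be tied to a window, so they are called L4 library 5 to L4 library 8 by their place in the table. Stage cannot be told apart from the experiment, because young adults and L4 worms were profiled in separate experiments. In whole worms, fewer cells of a type and less RNA per cell cannot be told apart, and ribosome occupancy holds both the amount of an mRNA and its use.

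Values are RPKM, a count of reads corrected for feature length and for library depth. Library totals were between 18018744 and 38132794 reads in young adults and between 3684924 and 26078844 reads in L4. The shallowest was L4 library 8, in which 1 read on a feature of 1 kilobase is worth 0.271 RPKM. L4 library 8 went against its label. Over 13592 CDS its correlation (Pearson's r of log2(RPKM + 1)) was 0.963 to 0.975 with the young-adult libraries and 0.774 to 0.785 with L4 libraries 5 to 7. Stage results are therefore given with all 8 libraries as labelled and with L4 library 8 left out, and L4 means, folds and shares below cover libraries 5 to 7. Listed marker genes followed the labels of the other libraries. The lists were chosen with earlier results of these data known, so they are no independent check of the labels. In both fits, 14 of 14 adult markers (vitellogenin, yolk receptor and eggshell genes, and pup-2) were higher in young adults. In both fits, 12 of 12 listed cuticle collagens and related genes were lower in young adults.

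The families took a small share of ribosomes in young adults and a several-fold larger one in L4. Reads on the 86 members made up 0.107% ± 0.0117 of library reads in young adults (SD, n = 4) and 0.659% ± 0.0441 in L4 libraries 5 to 7 (SD, n = 3), and 0.101% in L4 library 8. The gap lay mainly in the Hedgehog-related genes, which held 0.0337% ± 0.00118 of reads in young adults against 0.533% ± 0.0409 in L4. The patched-related genes held 0.0733% ± 0.0127 in young adults and 0.125% ± 0.00382 in L4. No library of young adults reached the share of any of L4 libraries 5 to 7 for either group of genes.

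**Figure D1:**
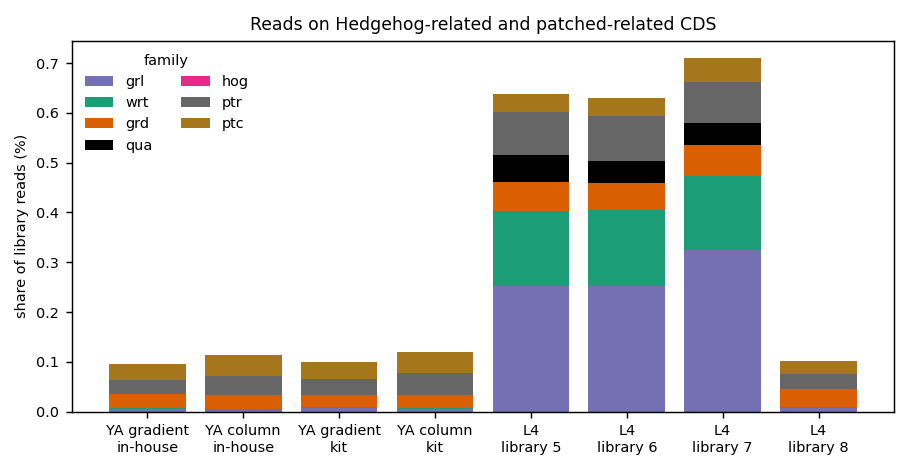
Share of library reads (%) on members of each family, stacked by family, in each of the 8 libraries, from reads recovered from the deposited RPKM values. Young-adult libraries and L4 library 8 stand near 0.1%, and L4 libraries 5 to 7 between 0.629% and 0.709%.

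The leading members differed between the stages by summed RPKM, which, unlike the read shares above, is corrected for feature length. In young adults, grd-3 alone made up 33.7% of the summed RPKM of the members and grd-5 another 23.5%. ptc-1 followed with 7.41%, and the top 10 members together made up 90.2%. By reads, ptc-1 stood above grd-3 in young adults, with 38473 reads against 12067. In L4 libraries 5 to 7 the summed RPKM was spread more widely, and the top 10 members made up 75.6%. The highest were grl-16 at 17.7%, grd-5 at 12.4%, wrt-10 at 9.48%, grl-5 at 9.35% and grl-7 at 9.07%. Only grd-5 and grd-14 stood in the top 10 of both stages by summed RPKM.

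Across the families, most members were lower in young adults than in L4. Of the 63 members that reached an RPKM of 1 in at least 2 libraries, 5 rose and 41 fell with all 8 libraries, and 17 did not pass the test (limma on log2(RPKM + 1), Benjamini-Hochberg threshold 0.05). Among the 13592 CDS tested in that fit 38.7% were called, 11.1% higher and 27.6% lower in young adults. With L4 library 8 left out, 6 rose and 51 fell, against 22.7% and 46.6% of 13494 CDS (69.3% called in either direction). The median difference over the tested members was -1.60 with all 8 libraries and -2.30 without L4 library 8, beside medians of -0.26 and -0.34 over all CDS tested. Of the 63, 29 had no young-adult library at an RPKM of 1. These passed the filter through L4 alone, which favours a fall. Of these 29, 26 fell with all 8 libraries and 29 without L4 library 8. Of the 31 with at least 2 young-adult libraries at 1 RPKM, 5 rose and 13 fell with all 8 libraries, and 6 rose and 19 fell without L4 library 8.

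The count of calls with all 8 libraries depended on single libraries. It was 1 without the young-adult column kit library, without L4 library 5 or without L4 library 6, and between 4 and 13 without any 1 of the others apart from L4 library 8. Without L4 library 8 it was 57, and with a further library left out it stayed within 1.5 times of that count. The median difference over the tested members lay between -2.30 and -1.35 with 1 library left out. The share of all CDS called in these fits is not given here, so the drop in calls cannot be read as particular to the members.

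Counts of non-overlapping libraries include every member. All 4 young-adult libraries were below all of L4 libraries 5 to 7 for 57 of the 86 members, and above them for 7, while 33.9% and 17% of all CDS did so. With L4 library 8 counted in, 20 members were below and 3 above, against 15.9% and 6.13% of all CDS. Of the 64 members whose mean RPKM reached 1 in either stage, 13 were 100-fold or more lower in young adults and another 23 were 10-fold to 100-fold lower. Over the 13409 CDS with such a mean, 2.69% were lower by 100-fold or more and 8.11% by 10-fold or more. A further 12 members were 2-fold to 10-fold lower, 11 lay within 2-fold, and 5 were 2-fold or more higher, as were 12.7% of CDS.

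**Figure D2:**
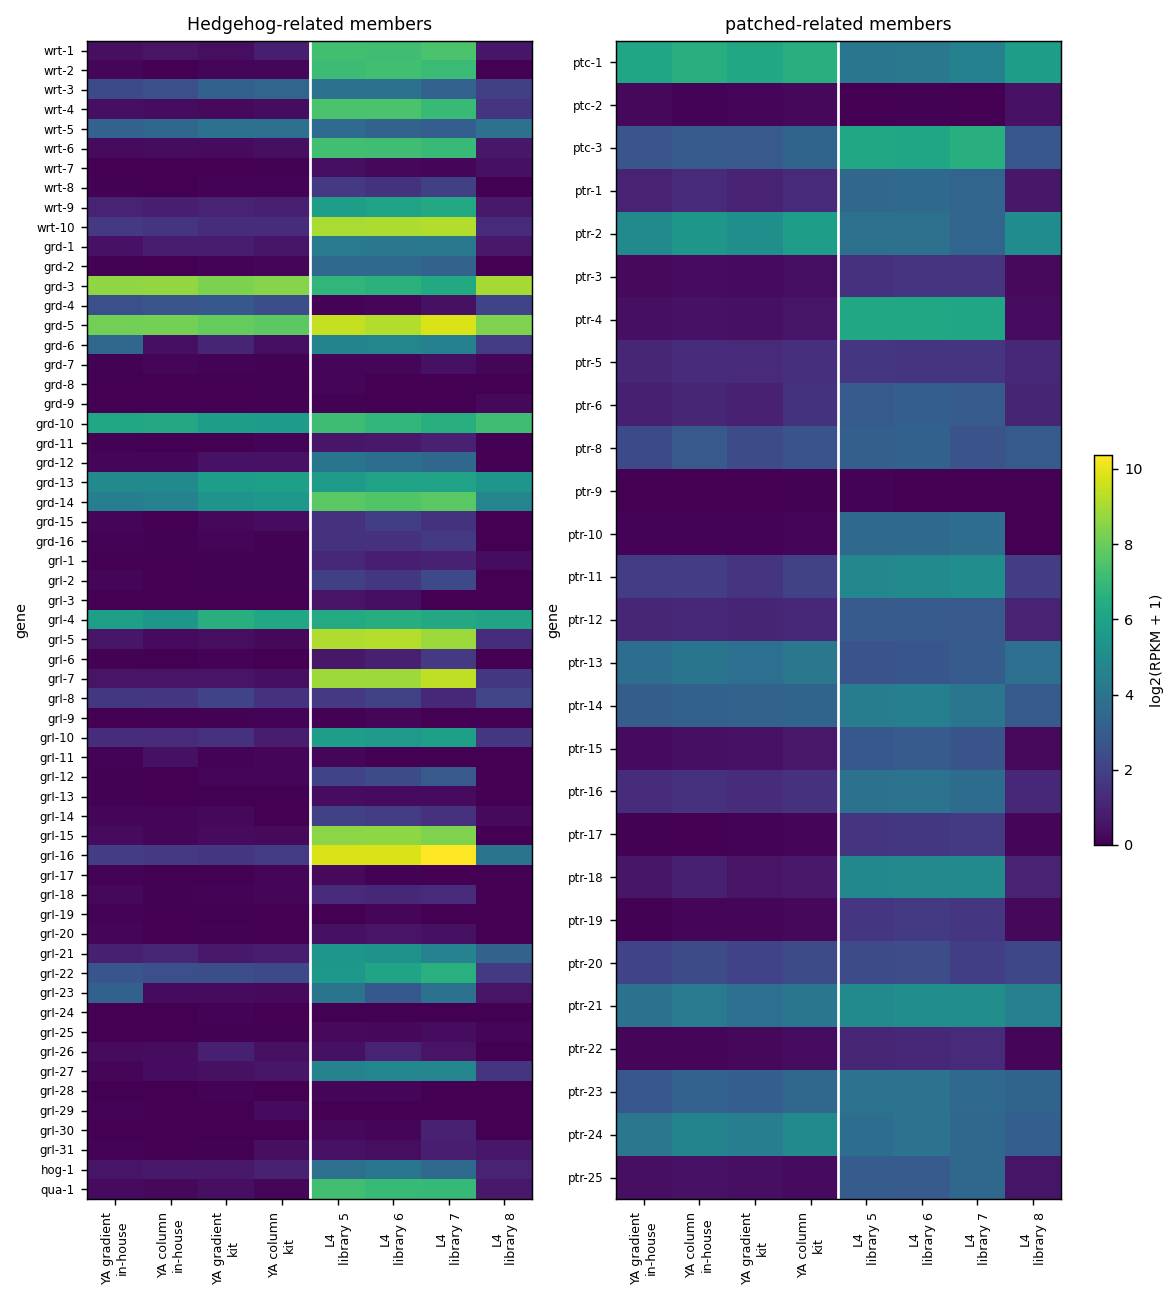
Ribosome occupancy, log2(RPKM + 1), of the 86 members (rows) in the 8 libraries (columns), with Hedgehog-related genes in the left panel and patched-related genes in the right panel, and a white line between young adults and L4. Many rows are dark in young adults and bright in L4 libraries 5 to 7, grd-3, ptc-1 and ptr-2 run the other way, and the column of L4 library 8 looks like those of young adults.

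Most warthog genes were far lower in young adults than in L4. Of 9 tested, 7 fell with all 8 libraries and 8 without L4 library 8, but 5 of these (wrt-1, wrt-2, wrt-4, wrt-6 and wrt-8) had no young-adult library at 1 RPKM and entered the test through L4 alone. Of the other 4, wrt-9 and wrt-10 fell in both fits. Over all CDS tested, 27.6% fell with all 8 libraries and 46.6% without L4 library 8. Summed over the family, warthog reads were 0.00159% of the library in young adults and 0.151% in L4.

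The highest warthog gene, wrt-10 (ZK1290.8), had 2.26, 1.95, 1.56 and 1.52 RPKM in young adults (here and below in the order gradient in-house, column in-house, gradient kit, column kit). It had 524, 548 and 574 RPKM in L4 libraries 5 to 7 and 1.35 RPKM in L4 library 8. Every young-adult library was more than 100-fold below each of the 3 L4 libraries, and L4 library 8 lay below all young-adult libraries. The log2 difference was -5.65 with an SE of 1.66 and an adjusted p of 0.0321 with all 8 libraries, and -7.61 with an SE of 0.13 and an adjusted p of 2.75e-11 without L4 library 8.

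wrt-2 (F52E4.6) had 0.0884, 0.0281, 0.151 and 0.12 RPKM in young adults, against 138, 149 and 134 RPKM in L4 libraries 5 to 7. Those young-adult values rest on 16 reads in all, against 10445 reads in L4 libraries 5 to 7, and L4 library 8 had no wrt-2 read. The pooled read rate was 1409-fold lower in young adults, with an exact 95% interval for counting error of 867 to 2466. wrt-2 fell with an adjusted p of 0.0309 with all 8 libraries, a call lost with voom on recovered reads (adjusted p 0.14), and 2.67e-11 without L4 library 8.

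wrt-1 (ZK1290.12), wrt-4 (ZK678.5) and wrt-6 (ZK377.1) belong to the Hog-domain class. wrt-1 had 0.332, 0.45, 0.318 and 0.823 RPKM in young adults, against 151, 144 and 173 RPKM in L4 libraries 5 to 7. wrt-4 had 0.325, 0.276, 0.185 and 0.261 RPKM in young adults, against 173, 171 and 126 RPKM in L4 libraries 5 to 7. wrt-6 had 0.221, 0.282, 0.232 and 0.337 RPKM in young adults, against 147, 143 and 128 RPKM in L4 libraries 5 to 7. All 3 were under 1 RPKM in every young-adult library and over 100 RPKM in each of these L4 libraries. Their log2 differences without L4 library 8 were -6.74, -6.95 and -6.79, and their adjusted p with all 8 libraries were between 0.0184 and 0.0284.

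A pair of warthog genes behaved differently. wrt-5 (W03D2.5), known for a role in embryogenesis, had 8.67, 10.2, 14 and 13 RPKM in young adults and 11.5, 8.95, 7.68 and 13.9 RPKM in L4 libraries 5 to 8, and the groups overlapped. Its adjusted p was 0.668 with all 8 libraries and 0.244 without L4 library 8, with a log2 difference of 0.26 that became 0.66 (adjusted p 0.00554) when each library was centred on its median. wrt-3 (F38E11.7) had 4.01, 4.83, 8.36 and 9.48 RPKM in young adults, against 14, 13.6, 8.45 and 2.87 RPKM in L4 libraries 5 to 8. These groups overlapped too, and the fall of wrt-3 passed without L4 library 8 (-0.80, adjusted p 0.0253) but not with it (adjusted p 0.525) nor with median centring (adjusted p 0.177).

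The single quahog gene, qua-1 (T05C12.10), is a Hog-domain gene known for a requirement in molting. It had 0.245, 0.179, 0.336 and 0.111 RPKM in young adults, against 151, 126 and 124 RPKM in L4 libraries 5 to 7 and 0.619 RPKM in L4 library 8. It fell by 6.79 on the log2 scale without L4 library 8 (SE 0.13, adjusted p 5.36e-11) and the difference was -5.19 with it (adjusted p 0.0247). hog-1 (W06B11.4), which holds a Hog domain, had 0.482, 0.614, 0.65 and 0.942 RPKM in young adults, against 13.2, 15.7 and 10.7 RPKM in L4 libraries 5 to 7. It was 19.6-fold lower in young adults, and fell with an adjusted p of 0.0239 with all 8 libraries and 5.18e-08 without L4 library 8.

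The 10 Hog-domain genes (wrt-1, wrt-4, wrt-6, wrt-7, wrt-8, grd-1, grd-2, grd-11, hog-1 and qua-1) were under 1 RPKM in every young-adult library. The 8 that were tested entered through L4 alone, a filter that favours a fall, and they fell in both fits. Counted without a filter, all 10 had their young-adult libraries below L4 libraries 5 to 7, a class chosen with earlier results known. The members outside the test, wrt-7 and grd-11, averaged 0.0149 and 0.0365 RPKM in young adults and 0.214 and 0.714 RPKM in L4 libraries 5 to 7. Together the class held 0.000544% of reads in young adults and 0.132% in L4. grd-1, the highest groundhog gene of the class, averaged 0.609 ± 0.152 RPKM in young adults (SD, n = 4) and 17.01 ± 0.869 RPKM in L4 libraries 5 to 7 (SD, n = 3).

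The ground-like genes held the members with the highest L4 occupancy and the largest fall on the log2 scale. Of 15 tested, 10 fell with all 8 libraries and 13 without L4 library 8, beside 27.6% and 46.6% of all CDS tested. Of the 15, 8 entered the test through L4 alone. Reads on the ground-like genes made up 0.00569% of the library in young adults and 0.276% in L4. The 16 others stayed under the filter in both stages.

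grl-16 (Y65B4BR.6) had 2.66, 2.29, 2.11 and 2.52 RPKM in young adults. In L4 libraries 5 to 7 it had 888, 871 and 1321 RPKM, and in L4 library 8 it had 15 RPKM. L4 library 8 lay above all young-adult libraries here, though nearer to them than to the other L4 libraries. grl-16 fell by 8.22 on the log2 scale without L4 library 8 (SE 0.17, adjusted p 5.5e-11) and the difference was -6.72 with it (SE 1.27, adjusted p 0.0149).

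grl-5 (Y47D7A.5) had 0.534, 0.227, 0.304 and 0.161 RPKM in young adults, against 567, 592 and 464 RPKM in L4 libraries 5 to 7 and 1.57 RPKM in L4 library 8. Its pooled read rate was 1723-fold lower in young adults, with an exact 95% interval for counting error of 1176 to 2638. On the log2 scale grl-5 fell by 8.70, the largest fall of any member without L4 library 8 (SE 0.15, adjusted p 2.63e-11). With all 8 libraries the adjusted p was 0.0214, and 0.0763 with voom on recovered reads.

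grl-7 (T02E9.2) makes a protein of the apical extracellular matrix. It had 0.481, 0.469, 0.458 and 0.357 RPKM in young adults, against 458, 462 and 655 RPKM in L4 libraries 5 to 7 and 2.25 RPKM in L4 library 8. grl-15 (Y75B8A.20) had 0.229, 0.146, 0.244 and 0.206 RPKM in young adults, against 379, 394 and 326 RPKM in L4 libraries 5 to 7 and no read in L4 library 8. Both genes were more than 100-fold lower in every young-adult library than in any of L4 libraries 5 to 7. grl-7 fell with an adjusted p of 0.0204 and grl-15 with 0.032 with all 8 libraries, and the call of grl-15 was lost there with voom on recovered reads (adjusted p 0.142).

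Lower L4 levels went with the same direction in other ground-like genes, chosen here after their values were seen. grl-10 averaged 1.34 ± 0.426 RPKM in young adults (SD, n = 4) and 52.1 ± 4.67 RPKM in L4 libraries 5 to 7 (SD, n = 3). grl-21 averaged 0.845 ± 0.232 RPKM in young adults and 35.1 ± 10.2 RPKM in L4, and grl-27 averaged 0.332 ± 0.161 RPKM in young adults and 26.0 ± 1.76 RPKM in L4. All 3 fell in both fits. grl-22 averaged 4.78 ± 0.84 RPKM in young adults and 68.1 ± 24.8 RPKM in L4, and its fall passed without L4 library 8 (adjusted p 3.43e-07) but not with it (adjusted p 0.0651).

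The exceptions were grl-4 and grl-8. grl-4 (F42C5.7) had 57.4, 44.4, 88.9 and 74.1 RPKM in young adults and 80.3, 85.9, 75 and 64.9 RPKM in L4 libraries 5 to 8. It was the highest ground-like gene in young adults, its groups overlapped, and it passed neither fit (adjusted p 0.377 with all 8 libraries and 0.202 without L4 library 8). Its log2 difference was -0.25 with all 8 libraries and 0.09 when these were median-centred. grl-8 averaged 2.34 RPKM in young adults and 2.19 RPKM in L4 and passed neither fit.

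**Figure D3:**
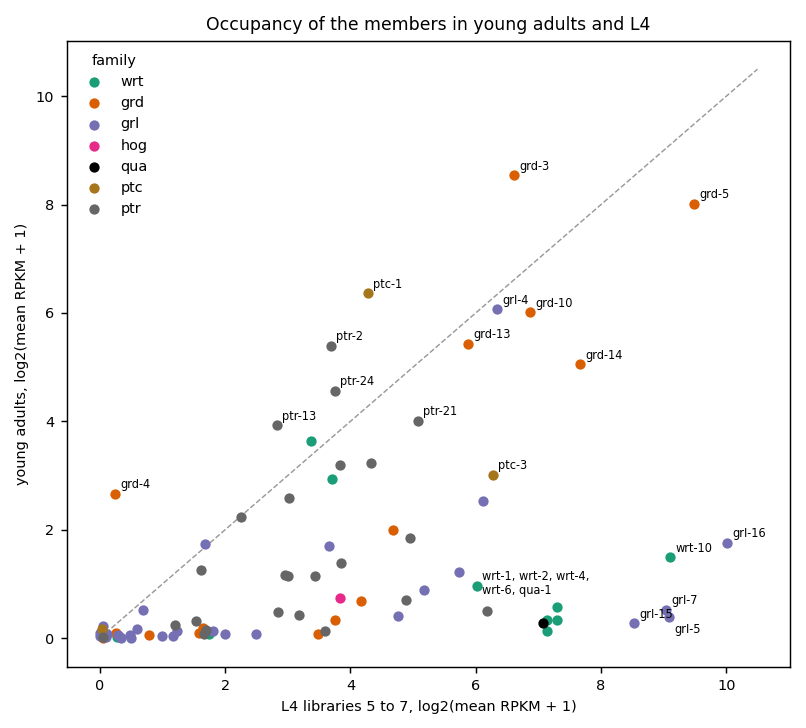
Mean occupancy of each of the 86 members in young adults (vertical axis) against L4 libraries 5 to 7 (horizontal axis), both as log2(mean RPKM + 1), coloured by family, with a dashed line of equal level. A row of warthog, ground-like and quahog genes lies along the bottom right, from 134 RPKM for qua-1 to 1027 RPKM for grl-16 in L4, and grd-3, grd-4, ptc-1, ptr-2, ptr-13 and ptr-24 lie above the line.

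The groundhog genes were mixed. Of 12 tested, 1 rose and 8 fell with all 8 libraries, beside 11.1% and 27.6% of all CDS tested. Without L4 library 8, 2 rose and 9 fell, beside 22.7% and 46.6% of all CDS tested. Of the 12, 5 were in the test through L4 alone. The family held 0.0263% of reads in young adults and 0.0584% in L4, the smallest gap among the Hedgehog-related families with several members.

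grd-3 (W05E7.1) was the highest member in young adults. It had 397, 406, 322 and 361 RPKM in young adults, against 112, 101 and 78.1 RPKM in L4 libraries 5 to 7, while L4 library 8 had 505 RPKM. The young-adult libraries were all above L4 libraries 5 to 7, and L4 library 8 was above every other library. grd-3 rose by 1.94 on the log2 scale without L4 library 8 (SE 0.16, adjusted p 1.81e-06), and did not pass with all 8 libraries (1.34, SE 0.52, adjusted p 0.0695) unless run with voom (adjusted p 0.0164).

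grd-4 (T01B10.1) had 4.77, 5.69, 6.32 and 4.57 RPKM in young adults, against 0.0752, 0.0899, 0.392 and 3.19 RPKM in L4 libraries 5 to 8. L4 libraries 5, 6 and 7 held 1 grd-4 read each and L4 library 8 held 6, against 318 reads in young adults. The pooled read rate was 49.1-fold higher in young adults than in L4 libraries 5 to 7, with an exact 95% interval for counting error of 16.7 to 239. No L4 library overlapped the young-adult libraries, and grd-4 rose in both fits (1.96 with an adjusted p of 0.0181 with all 8 libraries, and 2.42 with 2.53e-07 without L4 library 8).

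grd-5 (F41E6.2) was high in every library. It had 282, 292, 243 and 217 RPKM in young adults, against 696, 580.3, 868 and 331 RPKM in L4 libraries 5 to 8. The young-adult libraries were below every L4 library, and grd-5 fell in both fits (-1.18 with an adjusted p of 0.0212 with all 8 libraries, and -1.45 with 3.11e-05 without L4 library 8).

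grd-14 (T01B10.2) had 21.4, 23.2, 39.8 and 45 RPKM in young adults, against 208, 187, 211 and 25.3 RPKM in L4 libraries 5 to 8. It fell by 2.68 on the log2 scale without L4 library 8 (adjusted p 5.29e-06) and by 1.94 with it (adjusted p 0.0484), a call lost with median centring (adjusted p 0.0631), with no filter (0.0676) and with a pseudocount of 0.1 (0.0503). grd-10 (F09D12.1) had 71.5, 75.9, 54.9 and 51.9 RPKM in young adults, against 142, 115, 91.4 and 146 RPKM in L4 libraries 5 to 8. It fell in both fits, by 0.94 with all 8 libraries and by 0.86 without L4 library 8, and in neither with median centring (adjusted p 0.0758 and 0.0733). grd-13 (W05E7.3), with 29.4, 29.7, 53.1 and 56.4 RPKM in young adults and 48.9, 61.9, 62.5 and 43 RPKM in L4 libraries 5 to 8, passed neither fit.

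Some members are neighbours in the annotation. There were 7 pairs of members next to each other. Those with grl-9, grl-29, grl-30 or grl-31 held members under the filter, and the other pairs are given here. wrt-1 and wrt-10 both fell. grd-13, grd-3 and grd-10 follow each other in this order, and without L4 library 8 grd-3 rose, grd-10 fell and grd-13 passed neither fit. grd-14 and grd-4 are also neighbours, and grd-14 fell while grd-4 rose in both fits.

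Among the patched genes proper, ptc-1 rose and ptc-3 fell. ptc-1 (ZK675.1), known for its role in cytokinesis of the germ line, had 69.9, 90.5, 73 and 93.1 RPKM in young adults. In L4 libraries 5 to 8 it had 16, 16.9, 22.2 and 55.2 RPKM. All young-adult libraries were above all L4 libraries, and ptc-1 rose by 1.71 on the log2 scale with all 8 libraries (SE 0.36, adjusted p 0.0178) and by 2.09 without L4 library 8 (SE 0.16, adjusted p 1.36e-06).

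ptc-3 (Y110A2AL.8), an essential gene, had 5.59, 6.98, 6.49 and 9.25 RPKM in young adults, against 70.8, 68.4, 89.1 and 6.08 RPKM in L4 libraries 5 to 8. The young-adult libraries were below L4 libraries 5 to 7 and around L4 library 8. It was 10.8-fold lower in young adults by the means and fell in both fits (-2.41 with an adjusted p of 0.0361 with all 8 libraries, and -3.26 with 6.4e-08 without L4 library 8), the first of which was lost with no filter (adjusted p 0.0516). Because ptc-1 and ptc-3 moved in opposite directions, the share of reads on the ptc genes was 0.0377% ± 0.00562 in young adults and 0.0398% ± 0.00616 in L4. ptc-2 (F21H12.4) averaged 0.124 RPKM in young adults and 0.0219 RPKM in L4 libraries 5 to 7, with no read in L4 library 7, and was under the filter.

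The patched-related (ptr) genes fell in most cases. Of 23 tested, 3 rose and 13 fell with all 8 libraries, beside 11.1% and 27.6% of all CDS tested. Without L4 library 8, 3 rose and 18 fell, beside 22.7% and 46.6% of all CDS tested. Of the 23, 9 were in the test through L4 alone. Reads on the ptr genes made up 0.0356% of the library in young adults and 0.0856% in L4.

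ptr-2 (C32E8.8) was the highest of them in young adults. It had 28.9, 44.5, 35.1 and 55.6 RPKM in young adults, against 13, 13.1, 9.47 and 31.7 RPKM in L4 libraries 5 to 8. The groups did not overlap when L4 library 8 was left out, and L4 library 8 lay within the young-adult range. ptr-2 rose by 1.34 on the log2 scale with all 8 libraries (SE 0.36, adjusted p 0.0264) and by 1.68 without L4 library 8 (SE 0.22, adjusted p 6.73e-05).

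ptr-13 and ptr-24 rose as well. ptr-13 (K07C10.1) had 12.2, 15.4, 12.9 and 16.2 RPKM in young adults, against 5.28, 5.8, 7.2 and 12.8 RPKM in L4 libraries 5 to 8. ptr-24 (F46G10.5) had 16.3, 24.3, 20.6 and 29.4 RPKM in young adults, against 12.5, 14.6, 10.2 and 7.5 RPKM in L4 libraries 5 to 8. L4 library 8 lay within the young-adult range for ptr-13 and below every other library for ptr-24. The rise of ptr-13 had an adjusted p of 0.0343 and that of ptr-24 an adjusted p of 0.0241 with all 8 libraries, and both passed without L4 library 8.

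ptr-4 (C45B2.7), which is needed for molting, showed the largest fall among the ptr genes. It had 0.359, 0.404, 0.396 and 0.515 RPKM in young adults, against 73.9, 73.6, 67.7 and 0.28 RPKM in L4 libraries 5 to 8. The 4 young-adult libraries were more than 100-fold below L4 libraries 5 to 7, and L4 library 8 was below all of them. It fell by 5.68 on the log2 scale without L4 library 8 (SE 0.12, adjusted p 7.04e-11) and the difference was -4.22 with it (adjusted p 0.0317). ptr-18, ptr-11 and ptr-10, chosen after their values were seen, averaged 0.621, 2.58 and 0.0956 RPKM in young adults and 28.6, 29.9 and 11.1 RPKM in L4, and fell in both fits.

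Other ptr genes differed less. ptr-21 (Y65B4BR.3) had 13.8, 17.9, 12.8 and 16 RPKM in young adults, against 30.2, 34, 33.8 and 22.1 RPKM in L4 libraries 5 to 8, and fell by 0.93 with all 8 libraries (adjusted p 0.0158). ptr-23 (ZK270.1), known from the osmotic stress response, had 6.12, 8.66, 7.64 and 10.1 RPKM in young adults, against 14.4, 14.5, 10.7 and 9.11 RPKM in L4 libraries 5 to 8. Its adjusted p was 0.0789 with all 8 libraries, 0.00919 without L4 library 8 and 0.207 without L4 library 8 and with median centring. ptr-8 (F44F4.4), with 4.09, 6.37, 4.17 and 5.3 RPKM in young adults and 7.82, 8.23, 5.26 and 6.63 RPKM in L4 libraries 5 to 8, and ptr-20, with means of 3.7 RPKM in young adults and 3.79 RPKM in L4 libraries 5 to 7, passed neither fit. With voom on recovered reads ptr-8 was lower in young adults with an adjusted p of 0.0414 with all 8 libraries and 0.0177 without L4 library 8, and ptr-23 with 0.025 with all 8 libraries.

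The 23 members outside the stage test were nearly empty at both stages. They comprised 16 grl genes, 4 grd genes, wrt-7, ptc-2 and ptr-9. Their means did not exceed 0.439 RPKM in young adults and 1.26 RPKM in L4 libraries 5 to 7. In 8 of the 23 all young-adult libraries were below L4 libraries 5 to 7, a share close to the 33.9% of all CDS.

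Other gene lists are described by their counts, beside all CDS tested. Of those CDS, 27.6% fell with all 8 libraries and 46.6% without L4 library 8. Some listed genes had no young-adult library at 1 RPKM and entered the test through L4 alone, which favours a fall. The lists were also chosen with earlier results of these data known. In a list of 14 genes for Hedgehog processing, reception and relay or related to them, 9 of 13 tested fell with all 8 libraries and 11 fell without L4 library 8. The list's median differences were -0.80 and -0.96, beside -0.26 and -0.34 over all CDS tested. phg-1, related to the vertebrate GAS1 co-receptor, averaged 0.189 ± 0.0864 RPKM in young adults (SD, n = 4) and 64.9 ± 4.4 RPKM in L4 libraries 5 to 7 (SD, n = 3). hhat-1, of the Hedgehog acyltransferase family, averaged 0.0742 ± 0.0301 RPKM in young adults and 19.8 ± 1.54 RPKM in L4. Both were close to 0 in young adults, and hhat-1 was named after its values were seen. lrp-1, a megalin-related endocytic receptor of the epidermis, averaged 13.6 ± 1.03 RPKM in young adults and 71.3 ± 5.06 RPKM in L4. tra-1, the C. elegans GLI-family factor known for sex determination, averaged 10.2 ± 0.656 RPKM in young adults and 22.03 ± 1.52 RPKM in L4. lon-2 differed less, with an average of 6.43 ± 0.619 RPKM in young adults and 13.3 ± 0.196 RPKM in L4. These genes all fell in both fits.

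Of 14 molting regulators, 8 fell with all 8 libraries and 11 without L4 library 8, with median differences of -1.30 and -1.57. lin-42, the Period-related heterochronic gene, averaged 1.18 ± 0.293 RPKM in young adults and 70.4 ± 4.94 RPKM in L4, and fell with an adjusted p of 0.0322 with all 8 libraries. All 16 genes of the apical extracellular matrix and of cuticle shedding fell in both fits, with a median difference of -4.50 with all 8 libraries. Some of these 16 had no young-adult library at 1 RPKM and entered the test through L4 alone, which favours a fall. noah-1, a matrix protein of the epidermis, averaged 5.98 ± 0.298 RPKM in young adults and 642 ± 95.9 RPKM in L4. Of 13 tested epidermal and seam genes, 6 fell with all 8 libraries and 10 without L4 library 8, against the same 27.6% and 46.6% of all CDS. Of 4 tested glial genes, the falls of 3 passed without L4 library 8 and not with it, and a list of 4 is too short to set beside those shares. The part of a change in these tissues in the falls of the Hedgehog-related genes was not tested.

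At the members, L4 library 8 resembled young adults more than the other L4 libraries. Over the 86 members its correlation (Pearson's r of log2(RPKM + 1), a description) was 0.950 to 0.962 with young-adult libraries and 0.513 to 0.532 with L4 libraries 5 to 7. There were 24 members with an L4 mean of at least 10 RPKM and at least 10-fold lower in young adults. L4 library 8 was nearer to the young-adult mean for 23 of them, grl-21 being the exception. Its level was a median of 0.741% of the L4 mean over these 24, beside a median of 0.722% for the young-adult mean.

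It was not a copy of the young-adult libraries at every member. The exact 95% counting interval of L4 library 8 lay above all young-adult libraries for 4 of the 24. These were grl-16 (15 RPKM, 11.9 to 18.8), grl-21 (8.93 RPKM, 5.29 to 14.1), grl-7 (2.25 RPKM, 1.03 to 4.27) and wrt-4 (2.07 RPKM, 1.1 to 3.54). At grl-21 it reached 25.4% of the mean of the other L4 libraries. wrt-2, grl-15, grd-2, grd-12 and ptr-10 had no read in L4 library 8. The intervals cover counting error only.

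**Figure D4:**
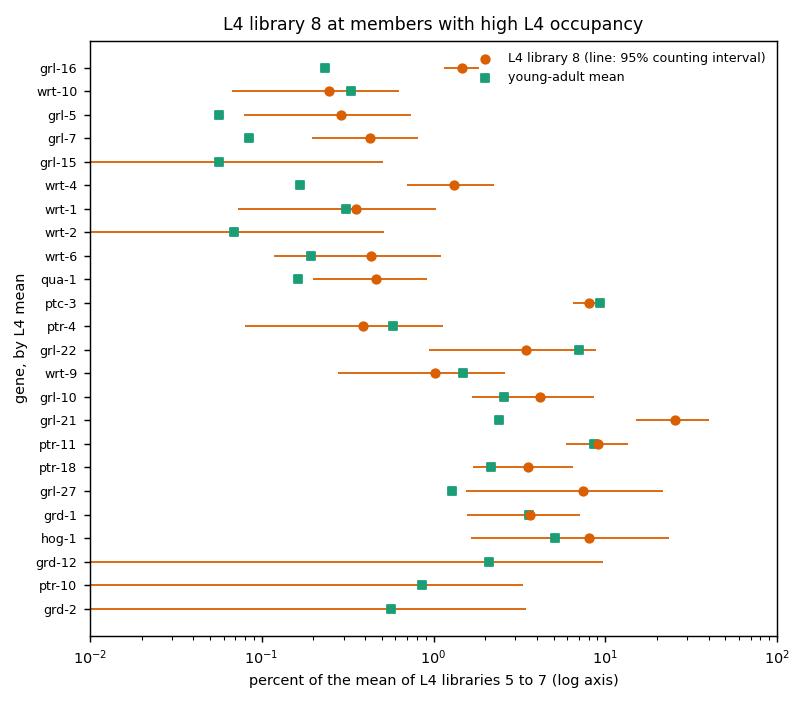
Level of L4 library 8 (circles, with exact 95% counting intervals) and of the young-adult mean (squares) as a percent of the mean of L4 libraries 5 to 7, on a log axis, for the 24 members with an L4 mean of at least 10 RPKM and at least 10-fold lower in young adults. Both lie under 10% for each gene other than grl-21, at 25.4% in L4 library 8, and the lines of genes with no read in L4 library 8 run off the left edge.

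L4 libraries 5, 6 and 7 ranked the members alike, with r of 0.991 to 0.997 over the 86. Among the 48 members with an L4 mean of at least 5 RPKM, L4 library 7, the shallowest of these 3, was highest in 18 and lowest in 26. Its ratio to the mean of L4 libraries 5 and 6 had a median of 0.931 and ran between 0.571 for grl-21 and 1.71 for grl-22. The ratio of L4 library 6 to L4 library 5 ran between 0.42 for grl-23 and 1.46. With 1 library per gel window and no window tied to a column, these ratios have no replicate.

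In young adults, the column was compared with the gradient as a way of isolating monosomes, over both library preparations. Of the 31 members tested, 8 rose and 2 fell with the column (limma with library preparation as a term, 1 residual degree of freedom), while 39% of 11569 CDS were called, 19.8% higher and 19.2% lower. The 8 that rose were all patched or patched-related: ptr-2, ptr-24, ptr-8, ptr-23, ptr-21, ptr-13, ptc-1 and ptc-3. The 2 that fell were the Hedgehog-related grl-4 and grd-6. The median difference over the tested members was 0.14 and over all CDS tested 0.02.

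The 3 rises with the smallest adjusted p were seen at a like size in both preparations. ptr-2 had 44.5 and 55.6 RPKM with the column, against 28.9 and 35.1 RPKM with the gradient (in-house, then kit), a log2 difference of 0.63 (SE 0.05, adjusted p 0.00355). ptr-24 had 24.3 and 29.4 RPKM with the column, against 16.3 and 20.6 RPKM with the gradient, a log2 difference of 0.52 (SE 0.06, adjusted p 0.00373). ptc-1 had 90.5 and 93.1 RPKM with the column, against 69.9 and 73 RPKM with the gradient, a log2 difference of 0.36 (SE 0.04, adjusted p 0.00404). In each of these 3 genes both column libraries were above both gradient libraries. The other 5 rises were between 0.31 for ptr-13 and 0.41 for ptr-8, and ptr-8 (0.53 in-house and 0.28 with the kit) and ptc-3 (0.27 and 0.45) differed in size between the preparations. The call of ptr-8 was lost with no filter (adjusted p 0.0578) and with no abundance trend (adjusted p 0.0511). A fit on all 8 libraries with a stage term, L4 library 8 among them, called no CDS for isolation or preparation (limma, with 223 CDS for isolation and 364 for preparation of 13592 at an unadjusted p under 0.05).

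All 16 tested patched and patched-related genes were higher with the column in both preparations, a pattern seen in 42.8% of all CDS tested. Among the 15 tested Hedgehog-related genes, 4 were higher and 6 were lower in both preparations. The groups also differ in length, with recovered feature lengths of 1976 to 4255 bases (median 2731) for the 27 patched-related members and 287 to 3511 bases (median 822) for the 59 Hedgehog-related members. Over the 11569 CDS tested, the isolation difference correlated with log2 length with r of 0.36, and over the 31 members with r of 0.34. These CDS share the same 4 libraries, and the part of length in the patched-related differences was not tested.

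**Figure D5:**
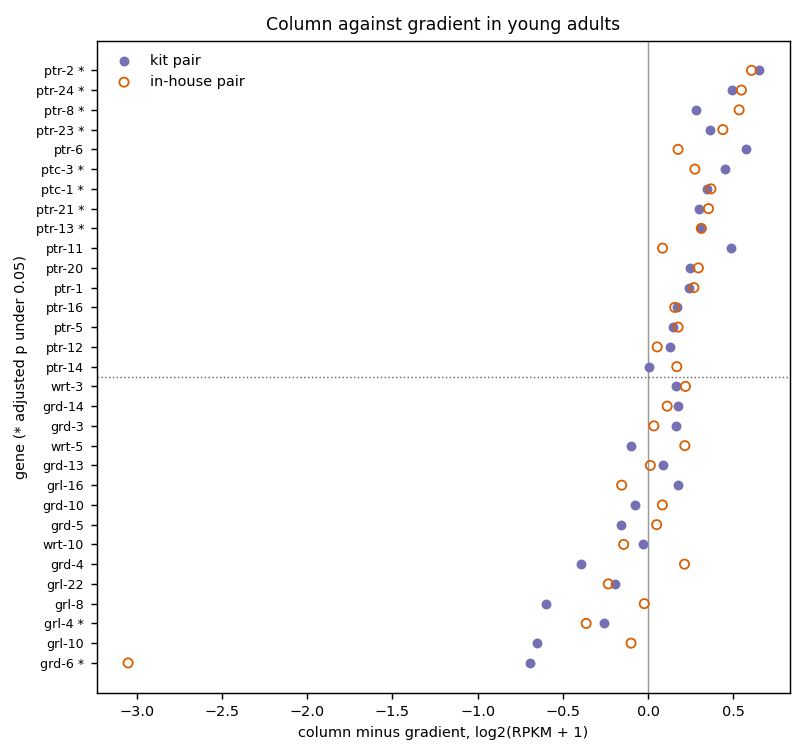
Column minus gradient, as the difference in log2(RPKM + 1), for the 31 tested members in the kit pair (filled circles) and in the in-house pair (open circles), with patched and patched-related genes above the dotted line and Hedgehog-related genes under it, and an asterisk where the adjusted p is under 0.05. All points of the 16 genes above the line lie at or right of 0, and grd-6 stands far left in the in-house pair.

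The 2 falls with the column were of different kinds. grl-4 had 44.4 and 74.1 RPKM with the column, against 57.4 and 88.9 RPKM with the gradient, a difference of -0.31 (SE 0.05, adjusted p 0.0077) seen in both preparations. grd-6 (T18H9.1) had 0.344 and 0.292 RPKM with the column, against 10.1 and 1.09 RPKM with the gradient (adjusted p 0.0413). That value rested on the in-house gradient library, with 563 grd-6 reads against 15, 71 and 9 reads in the other young-adult libraries. The call was lost with a pseudocount of 5 (adjusted p 0.0767) and with no abundance trend (adjusted p 0.107).

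grd-6 was not alone in that library. In the in-house gradient library, 14 of the 20505 CDS reached at least 5 RPKM and at least 5-fold above each of the other 3 young-adult libraries, and grd-6 and grl-23 were among them. In each of the other 3 young-adult libraries 0 CDS did so, a count with no test. grl-23 had 8.32 RPKM in it and 0.237, 0.226 and 0.192 RPKM in the other young-adult libraries, against 14.7, 6.18, 14.2 and 0.469 RPKM in L4 libraries 5 to 8. grd-6 had 24.9, 26.3, 22.5 and 2.54 RPKM in L4 libraries 5 to 8. At stage, grd-6 fell in both fits (adjusted p 0.0436 with all 8 libraries and 0.000858 without L4 library 8), the first of which was lost with median centring (adjusted p 0.0606) and with no filter (0.0621), and grl-23 fell without L4 library 8 (adjusted p 0.00608).

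Library preparation was compared as kit against in-house in the same 4 libraries. Of the 31 members tested, 7 rose and 3 fell with the kit, and the background was 25.9% and 10% of 11569 CDS (35.9% in either direction), so the members' counts are close to those of all CDS. The median difference was 0.04 over the members and 0.10 over all CDS tested. Median centring changed the counts to 6 higher and 5 lower.

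The Hedgehog-related genes held the larger differences. grd-14 had 39.8 and 45 RPKM with the kit, against 21.4 and 23.2 RPKM in-house (gradient, then column), a log2 difference of 0.89 (SE 0.05, adjusted p 0.000799). grd-13 had 53.1 and 56.4 RPKM with the kit, against 29.4 and 29.7 RPKM in-house, a log2 difference of 0.87 (adjusted p 0.000781). wrt-3 had 8.36 and 9.48 RPKM with the kit, against 4.01 and 4.83 RPKM in-house, a log2 difference of 0.87 (adjusted p 0.00191). In these 3 genes the kit libraries did not overlap the in-house libraries. grl-4 rose by 0.68 and wrt-5 by 0.47, and ptr-2 and ptr-24 each rose by 0.29. The call of wrt-5 was lost with no abundance trend (adjusted p 0.0546) and that of ptr-24 with median centring (adjusted p 0.0661).

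The 3 that fell with the kit were all groundhog genes. grd-10 had 54.9 and 51.9 RPKM with the kit, against 71.5 and 75.9 RPKM in-house, a difference of -0.46 (SE 0.06, adjusted p 0.00398). grd-5 had 243 and 217 RPKM with the kit, against 282 and 292 RPKM in-house, a difference of -0.32 (adjusted p 0.0124). grd-3 had 322 and 361 RPKM with the kit, against 397 and 406 RPKM in-house, a difference of -0.23 (adjusted p 0.0136). With no abundance trend, grd-5 (adjusted p 0.0692) and grd-3 (adjusted p 0.0834) did not pass. The neighbours grd-13, grd-3 and grd-10 thus went different ways by preparation, with grd-13 higher and the others lower with the kit.

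The stage values of the same genes can be set beside these differences. For grd-13 the kit libraries, at 53.1 and 56.4 RPKM, lay within the range of L4 libraries 5 to 7, and the in-house libraries, at 29.4 and 29.7 RPKM, lay below it. For wrt-3 the kit libraries straddled the lowest of L4 libraries 5 to 7, at 8.45 RPKM, and the in-house libraries lay below it. By contrast, the young-adult libraries of grl-5, grl-7, grl-15, grl-16, wrt-1, wrt-2, wrt-4, wrt-6, wrt-10 and qua-1 were more than 100-fold below L4 libraries 5 to 7 in either preparation.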

How the data were processed

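Per the file headers, the authors deposited 1 table of RPKM per CDS. Per the submitters' processing notes, the tools were STAR 2.4, Bowtie2 2.2.4 and bcl2fastq 1.8.4, with no roles named. The treatment of multiply mapped reads is unstated in the sources used here. Near-identical copies could not be checked.

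Since RPKM values step by whole reads, library totals, whole reads and feature lengths could be worked out from them (for all 19649 CDS with a value, within 0.0001) with Python 3.11.15. Lengths may be too short for CDS with few reads. Sequence names were matched to locus tags (20051 of 20505). Of 88 symbols fitting the rule, 2 were not analysed here.

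Differences in log2(RPKM + 1), two-sided, were tested with limma 3.58.1 in R 4.3.3 (lmFit, eBayes with trend), for CDS that reached 1 RPKM in 2 or more libraries, with Benjamini-Hochberg adjustment over all CDS. Isolation and preparation were fitted together on the young adults. Scripts were tested on simulated data. P-values measure the spread between libraries, which may be technical.

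The members and gene lists were chosen with earlier results of these data known. Named members were, for stage, the 10 largest rises (6 met the rule) and falls among members with a mean of at least 5 RPKM and no overlap without L4 library 8, all ptc, hog and qua genes, the 2 highest of each other family, and all called for isolation or preparation. From lists, genes were named from among the 4 called genes with the highest mean RPKM, and not all 4 are given for each list. hhat-1, grd-1, grd-2, wrt-7, wrt-8, grd-11, grl-8, grl-23, ptr-20 and those so described were named after their values were seen. Alternatives were other pseudocounts, filters, median centring, no trend, voom on recovered reads, all 8 libraries with a stage term and leaving out libraries.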

Additional observations from a re-analysis of the deposited data

Results flagged for a closer look

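The check covered 62 groups of 4 libraries (31 named members, young adults and L4). By Dixon's ratio at the 95% level, 13 held 1 library far from the other 3. Chance trips this check in about 1 of 20 independent groups. That rate does not apply here, because the groups share the same 8 libraries. Many members were also named for their stage difference without L4 library 8. In 12 of the 13 the far library was L4 library 8. That library was far below the other L4 libraries for wrt-1 (0.549 RPKM), wrt-2 (0 RPKM), wrt-6 (0.5997 RPKM), wrt-10 (1.35 RPKM), grd-6 (2.54 RPKM), grd-14 (25.3 RPKM) and ptr-4 (0.28 RPKM). It was far above them for grd-3 (505 RPKM), grd-4 (3.19 RPKM), ptc-1 (55.2 RPKM), ptc-2 (0.412 RPKM, 3 reads) and ptr-2 (31.7 RPKM). For 7 of these 12 genes the library stood below and for 5 above, each time on the young-adult side. The remaining case was grd-6 in the in-house gradient library of young adults, at 10.1 RPKM.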

How the results depend on the processing

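Fits with L4 library 8 left out, and their alternatives, were chosen after seeing the data. With all 8 libraries, 46 of 63 members tested were called for stage, and between 1 and 57 when 1 library was left out. With a filter at 10 RPKM, 29 of 42 tested were called. The median of -1.60 became -2.61 with a pseudocount of 0.1, -0.90 with a pseudocount of 5, -0.94 with no filter, -2.46 with the filter at 10 RPKM, -1.27 with median centring and -3.51 with voom, and lay between -2.30 and -1.35 with 1 library left out. Without L4 library 8, 57 were called under every alternative within 1.5 times, and the median of -2.30 became -3.62 and -1.05 with pseudocounts of 0.1 and 5, -1.15 with no filter, -3.37 with the filter at 10 RPKM, -1.89 with median centring and -4.09 with voom. Median centring shifted the difference of every CDS by 0.33 for stage, 0.40 for stage without L4 library 8, -0.06 for isolation and -0.12 for preparation. For isolation, 10 calls among 31 members tested became 6 among 12 tested with the filter at 10 RPKM. The isolation median of 0.14 became 0.012 with no filter. For preparation, the median of 0.04 became 0.18 with the filter at 10 RPKM and -0.0756 with median centring. In a limma fit on all 8 libraries with a stage term, isolation and preparation gave 0 calls among 63 members and 0 among 13592 CDS, with isolation and preparation medians over members of 0.0496 and 0.0458, and 0 and 2 members and 223 and 364 CDS at an unadjusted p under 0.05. The causes were not tested. No called difference changed sign, while the preparation median and some uncalled differences, such as grl-4 at stage, did. Leaving out 1 young-adult library leaves isolation and preparation with no residual degrees of freedom, so those are values without a test. No paired analysis was possible because young adults and L4 share no replicate numbers in the labels. Depth limits L4 library 8 most, where the exact 95% interval of 0 reads at wrt-2 reaches 0.719 RPKM.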
